A study of Mus musculus with 6 samples.

Results

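Oxidative phosphorylation is carried out by 5 protein complexes of the inner mitochondrial membrane, and the transcripts of their nuclear-encoded subunits were examined here in tumor-associated macrophages (TAMs). The subunit genes were the protein-coding genes of the count table whose symbols start with Ndufa, Ndufb, Ndufc, Ndufs, Ndufv, Sdha to Sdhd, Uqcr, Cox4 to Cox8 or Atp5, with at least 10 counts in at least 3 libraries. Pseudogene and Gm symbols, 8 Ndufaf and 4 Sdhaf assembly factors were left out. Of 86 such genes among 55421 in the table, 81 met the count minimum: 38 in complex I, 4 in complex II, 8 in complex III, 14 in complex IV and 17 in complex V. TAMs, sorted as CD11b+F4/80+ cells, came from MC17-51 fibrosarcomas (M17 in the labels) on day 15. They were isolated from Pdcd1f/fLysMcre mice, in which Cre driven by the lysozyme M gene removes floxed Pdcd1, the gene of the inhibitory receptor PD-1, in cells of the myeloid lineage, and from Pdcd1f/f mice, which carry the same floxed alleles without Cre. Each genotype had 3 libraries, and both genotypes bore the same tumor. The mice were adults. Whether a library held cells of 1 mouse or of several is not given in the sources used here. The p-values therefore measure the spread between these libraries. Every library held both Xist and Y-linked transcripts, which differ by sex and are given further on, and the source of this mixture was not tested.

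Complex I takes electrons from NADH and complex II from succinate; both pass them through ubiquinone to complex III, then through cytochrome c to complex IV, which reduces oxygen. Complexes I, III and IV pump protons, and complex V, the ATP synthase, uses the resulting gradient to make ATP. Most subunits are encoded in the nucleus, and a small set of core subunits is encoded in mitochondrial DNA. In macrophages the balance between oxidative phosphorylation and glycolysis differs between activation states.

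The summed subunit transcripts of complexes I, III and IV were slightly lower in each library of Pdcd1f/fLysMcre TAMs, and those of complexes II and V overlapped between the genotypes. The summed level of the 38 complex I genes, in CPM (counts scaled to library size) per kilobase of transcript, was 2462, 2518 and 2473 in Pdcd1f/f TAMs and 2337, 2284 and 2336 in Pdcd1f/fLysMcre TAMs, a difference of -6.65%. The 8 complex III genes summed to 1077, 1097 and 1041 in Pdcd1f/f and to 982, 988 and 997 in Pdcd1f/fLysMcre TAMs, a difference of -7.68%. For the 14 complex IV genes the sums were 2294, 2341 and 2327 against 2189, 2122 and 2130.2, a difference of -7.48%. In these 3 complexes every Pdcd1f/fLysMcre library was below every Pdcd1f/f library. For complex II the sums were 473, 497 and 482 against 464, 486 and 469, and for complex V they were 3281, 3307 and 3192 against 3191, 3240.0 and 3177. The genotypes overlapped in complexes II and V, with differences of -2.29% and -1.77%. These sums are not corrected for GC content, and no difference between complexes was tested. The median log2 fold change was -0.11, -0.08, -0.13, -0.14 and -0.06 in complexes I to V, and -0.12, -0.05, -0.07, -0.14 and -0.06 with the correction for GC content and length given further on. In these bulk samples, fewer cells of a type and less RNA per cell cannot be told apart.

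**Figure D1:**
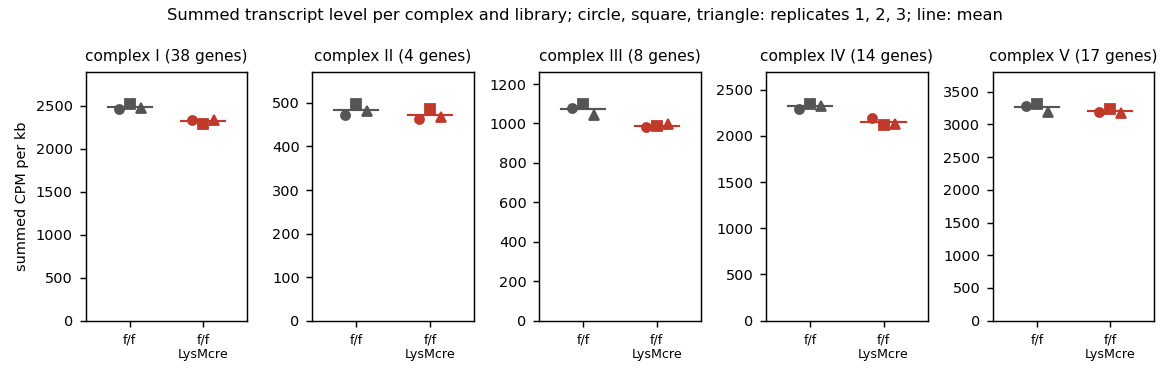
Summed transcript level of the subunit genes of each complex (y axis, CPM per kilobase, from 0) in each library of Pdcd1f/f and Pdcd1f/fLysMcre TAMs; points are libraries and lines are means of 3. The 3 Pdcd1f/fLysMcre libraries lie below the 3 Pdcd1f/f libraries for complexes I, III and IV and overlap them for complexes II and V.

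Gene by gene, 1 subunit passed the threshold. Of the 81 genes, 80 passed the filter of the test, and among these only Cox7a2l fell in Pdcd1f/fLysMcre TAMs, while none rose (quasi-likelihood test of edgeR, p-values adjusted by Benjamini-Hochberg over 14469 genes, threshold 0.05). That is 1.25% of the subunits, beside 5.43% of all genes past the threshold in either direction. The log2 fold change (Pdcd1f/fLysMcre against Pdcd1f/f) was below 0 in 58 and above 0 in 22 of the 80 genes, and its median was -0.10, beside -0.0026 over all genes. At an unadjusted p under 0.05, 20 subunits were lower and 1 was higher, which is 25% and 1.25% of them, beside 11.9% of all genes lower and 12.3% higher. Every Pdcd1f/fLysMcre library was below every Pdcd1f/f library in 20 subunits, 25% of them, and above in 2, which is 2.5%, beside 13.1% and 14.1% of all genes. The differences were small: the 95% confidence interval of the log2 fold change lay within 0.5 of 0 for 72 of the 80 subunits (90%), beside 58.6% of all genes.

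**Figure D2:**
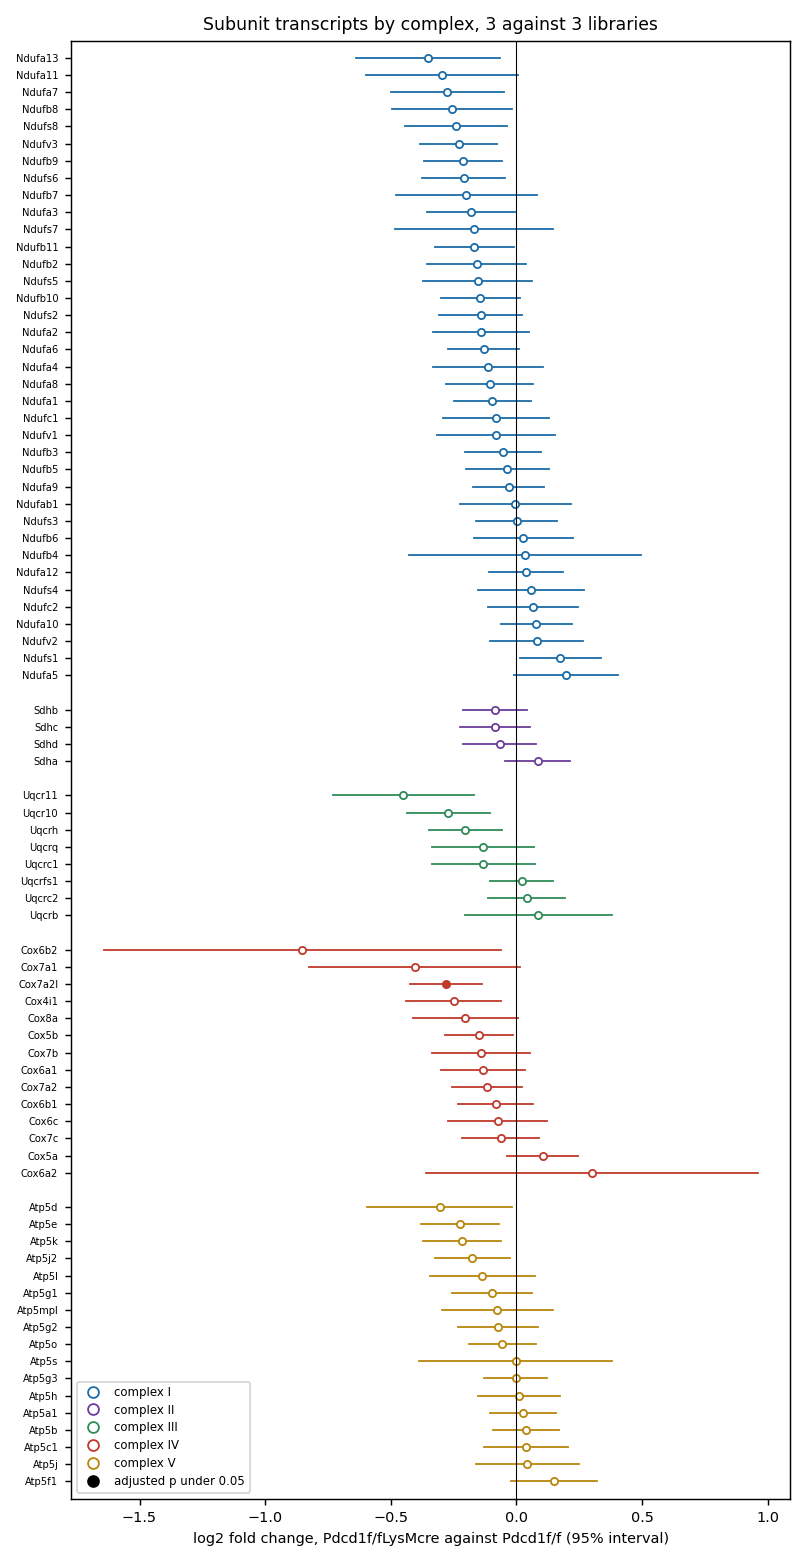
Log2 fold change (x axis) of the 80 tested subunit genes (y axis), ordered within complexes I to V, with 95% confidence intervals from edgeR over 3 against 3 libraries; filled points have an adjusted p under 0.05. Most points lie left of 0, with Cox7a2l as the 1 filled point.

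As a check of the labels, Pdcd1 was counted 10, 12 and 15 times in the Pdcd1f/f and 7, 16 and 11 times in the Pdcd1f/fLysMcre libraries, too few to show whether it was deleted. Lyz2, the gene into which the LysM-Cre transgene is inserted, had between 189889 and 242873 counts in Pdcd1f/f libraries and between 418 and 503 in Pdcd1f/fLysMcre libraries. The genotypes thus differed in Lyz2 as well as in floxed Pdcd1 with Cre. The parts of the 2 genes in the subunit values cannot be told apart. Libraries held between 41833823 and 51417209 counts. All 7 macrophage markers were detected. Their summed level was between 6957 and 7057 CPM in Pdcd1f/f and between 5718 and 5862 CPM in Pdcd1f/fLysMcre libraries, and Adgre1, Csf1r, Mertk and Mrc1 fell past the threshold. Among the markers of other cells, Csf3r of the neutrophil list fell (log2 fold change -0.51, adjusted p = 0.00686). Col1a2 of the fibroblast list fell from a mean of 132 to 65.6 normalized counts (adjusted p = 0.0121). By contrast, 3 of 5 tested neutrophil markers and 2 of 6 tested fibroblast markers were above 0. Ly6g, Camp and Ngp of the neutrophil list had at most 9 counts in any library. Most counts of that list were those of Csf3r, S100a8 and S100a9, and their cell of origin was not tested. Summed levels of 8 neutrophil markers were between 89.2 and 95.9 CPM against 80.9 and 83.8, of 7 fibroblast markers between 65.3 and 70.3 against 62.2 and 68.7, of 6 T cell markers between 12.8 and 14.5 against 11.7 and 14.1, of 4 dendritic cell markers between 4.68 and 6.32 against 5.92 and 7.62, of 4 B cell markers between 3.57 and 4.45 against 2.55 and 3.16, and of 3 NK cell and 4 erythroid markers at most 0.761 CPM in any library. The study's methods describe the TAM sort for mice with another floxed gene, where it also required CD45 and excluded Ly6G. The part of these marker differences in the subunit values was not tested. Pdcd1f/f replicate 1 and Pdcd1f/fLysMcre replicate 2 stood apart from the other libraries of their genotype by the GC content of the transcripts they favored, as described with the results on GC content.

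Subunits differed widely in level. Per kilobase of transcript, Atp5b, a catalytic subunit of the ATP synthase, was the highest at 641 ± 28.7 CPM in Pdcd1f/f and 658 ± 10.1 CPM in Pdcd1f/fLysMcre TAMs (SD, n = 3). It was followed by Atp5g3, which encodes the c-ring of the ATP synthase, at 414 ± 10.2 and 413 ± 6.62, by the other catalytic head subunit Atp5a1 at 379 ± 16.4 and 386 ± 3.37, and by Cox5a of complex IV at 349 ± 14.9 and 375 ± 18.2. Cox4i1 was next in the mean over both genotypes, at 381 ± 36.6 in Pdcd1f/f and 320.4 ± 25.5 in Pdcd1f/fLysMcre TAMs. Atp5a1 and Cox4i1 differed by less than their spread in Pdcd1f/f TAMs. The 5 lowest were Atp5s, known as factor B of the ATP synthase, at 2.10 ± 0.198 and 2.09 ± 0.450, and 4 isoforms known from other tissues or from low oxygen. Cox7a1 had 4.67 ± 0.649 and 3.52 ± 0.355 CPM per kilobase, Cox6a2 had 0.895 ± 0.185 and 1.10 ± 0.253, Cox6b2 had 1.23 ± 0.195 and 0.682 ± 0.278, and Ndufa4l2 had 0.213 ± 0.0407 and 0.251 ± 0.111. The order of Cox6a2 and Cox6b2 differed between the genotypes.

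In complex I, 37 genes were tested and none passed the threshold. Ndufb1-ps, left out for its name, had 4468 ± 701 and 4541 ± 492 normalized counts (SD, n = 3; log2 fold change 0.03, adjusted p = 0.913). The log2 fold change was below 0 in 27 and above 0 in 10, with a median of -0.11. The lowest value with TMM scaling was that of Ndufa13, an accessory subunit also called GRIM-19; with the correction for GC content and length it was -0.16, and Ndufb2 was lowest at -0.24. The normalized counts of Ndufa13 were 2085, 2690.4 and 2981 in Pdcd1f/f and 1998, 1789.5 and 2280.1 in Pdcd1f/fLysMcre libraries, so that the genotypes overlapped (log2 fold change -0.35, SE 0.13, adjusted p = 0.134). The highest was that of Ndufa5, an accessory subunit of the matrix arm, with 1861, 1679 and 1515 against 1765, 2089.5 and 1932 normalized counts (log2 fold change 0.20, SE 0.094, adjusted p = 0.228), again with overlap.

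The 7 core subunits of complex I, which carry the flavin and the iron-sulfur clusters, had 4 values below and 3 above 0. With the correction for GC content and length, Ndufs7 turned from -0.17 to 0.00023 and Ndufv1 from -0.08 to 0.04. Ndufs1, the largest of the core subunits, had 7019, 6793 and 6294 normalized counts in Pdcd1f/f and 7337, 8207 and 7131 in Pdcd1f/fLysMcre libraries. It was the only complex I subunit with every Pdcd1f/fLysMcre library above every Pdcd1f/f library. Its log2 fold change was 0.18 (SE 0.073, adjusted p = 0.175), and 0.07 with the correction for GC content and length. The genotypes separated in the opposite direction in 6 of the 30 accessory subunits (20%), beside 13.1% of all genes. Ndufv3, an accessory subunit of the NADH-oxidizing module, had 2252, 2179.8 and 2427 normalized counts against 1951, 1899 and 1988, and the lowest p of the complex (log2 fold change -0.23, SE 0.069, adjusted p = 0.0778). Ndufb9 and Ndufs6, also accessory, had log2 fold changes of -0.21 (adjusted p = 0.102) and -0.21 (adjusted p = 0.120). With the correction for GC content and length they were at -0.12 (adjusted p = 0.127) and -0.18 (adjusted p = 0.0308).

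Complex II, succinate dehydrogenase, is the complex shared with the tricarboxylic acid cycle. Sdha, its flavoprotein, had 16704, 17485 and 17766 normalized counts in Pdcd1f/f and 17931, 18455 and 18609.6 in Pdcd1f/fLysMcre libraries. All 3 Pdcd1f/fLysMcre libraries were above the Pdcd1f/f libraries, with a log2 fold change of 0.08 (95% interval -0.04 to 0.21, adjusted p = 0.404). Sdhb, the iron-sulfur subunit, had 7864, 7983 and 7703 against 7229, 7345 and 7571, with all 3 Pdcd1f/fLysMcre libraries below the Pdcd1f/f libraries and a log2 fold change of -0.09 (95% interval -0.21 to 0.04, adjusted p = 0.382). The membrane anchors overlapped between the genotypes: Sdhc had a log2 fold change of -0.08 (95% interval -0.22 to 0.05, adjusted p = 0.433) and Sdhd of -0.07 (95% interval -0.21 to 0.08, adjusted p = 0.566). With the correction for GC content and length, Sdha was at 0.03 and Sdhb at -0.0092, and each turned sign in 2 of the fits with this correction and 1 library left out. No gene of this complex passed the threshold, and all 4 intervals exclude a change of 0.5 on the log2 scale.

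Cyc1 of complex III, which carries cytochrome c1, and Usmg5 of complex V lie outside the symbol prefixes and are not in the sums and counts given here; their log2 fold changes were -0.12 (adjusted p = 0.421) and -0.12 (adjusted p = 0.439). In complex III, 8 genes were tested, with a median log2 fold change of -0.13. The lowest values were those of 3 small subunits. Uqcr11 had 1805, 2221 and 2394 normalized counts in Pdcd1f/f and 1616, 1309.5 and 1766 in Pdcd1f/fLysMcre libraries, Uqcr10 had 3183, 3595 and 3501 against 2876, 2655 and 2974, and Uqcrh, the hinge protein that contacts cytochrome c1, had 5981, 6029 and 5502 against 5099, 4856 and 5241. The genotypes did not overlap in any of these 3 genes. The log2 fold changes were -0.45 (SE 0.13, adjusted p = 0.0670) for Uqcr11, -0.27 (SE 0.074, adjusted p = 0.0625) for Uqcr10 and -0.20 (SE 0.065, adjusted p = 0.0945) for Uqcrh, none past the threshold. In 22 alternatives given further on, Uqcr11 passed it in 13, Uqcr10 in 12 and Uqcrh in 9. Uqcr11 passed with DESeq2 (adjusted p = 0.0102) and with the replicate number as a block (adjusted p = 0.0250). With TMM scaling and 1 library left out, Uqcr11 passed in 1 of 6 fits. Of the core proteins, Uqcrc1 had a log2 fold change of -0.13 (adjusted p = 0.409), close to the median of the complex, and -0.05 with the correction for GC content and length. Uqcrc2 and the Rieske iron-sulfur protein had values closer to 0: Uqcrc2 0.04 (adjusted p = 0.762) and Uqcrfs1 0.02 (adjusted p = 0.854), which turned to -0.024 and -0.014 with the correction. All 3 overlapped between the genotypes. The highest value of the complex was that of Uqcrb, a ubiquinone-binding subunit, at 0.09 (SE 0.13, adjusted p = 0.720), which turned to -0.03 with the correction for GC content and length given further on. Of the 42-base windows of the Uqcrb transcript, 48.0% also occurred in another annotated gene, so its count is uncertain.

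Complex IV, cytochrome c oxidase, held the subunit that passed the threshold. Cox7a2l (chromosome 17, positions 83501918 to 83517330, minus strand, GRCm38) encodes a protein described as joining complexes III and IV into a supercomplex. Supercomplexes were not measured here, and the Cox7a2l allele of these mice is not given in the sources used. Cox7a2l had 4686, 4888 and 5228 normalized counts in Pdcd1f/f and 4051, 3974 and 4147 in Pdcd1f/fLysMcre libraries. All Pdcd1f/fLysMcre libraries were lower, by a log2 fold change of -0.28 (SE 0.064, 95% interval -0.42 to -0.14, adjusted p = 0.0327). With 1 library left out, the adjusted p was 0.00466 without Pdcd1f/f replicate 1. It was 0.161 without Pdcd1f/f replicate 2, 0.144 without Pdcd1f/f replicate 3, and 0.145, 0.0998 and 0.0647 without Pdcd1f/fLysMcre replicates 1, 2 and 3, with log2 fold changes between -0.32 and -0.24. Of its 42-base windows, 21.2% also occurred in another annotated gene, foremost the pseudogene Gm6969, which had between 8 and 18 counts in each library.

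Of the 14 log2 fold changes in complex IV, 12 were below 0, that of Cox7a2l among them, with a median of -0.14, and no other gene of the complex passed the threshold. Cox4i1, the ubiquitous form of the regulatory subunit 4, had 12264, 14554 and 14449.5 normalized counts in Pdcd1f/f and 12071, 10498 and 12095 in Pdcd1f/fLysMcre libraries, which did not overlap (log2 fold change -0.25, SE 0.085, adjusted p = 0.112). Cox5b had 4397, 4487 and 4564 against 4096, 3854 and 4148, again without overlap (log2 fold change -0.15, SE 0.061, adjusted p = 0.164). Cox5a, its partner in the assembled enzyme, had 11010.3, 10704 and 10139 against 11339.7, 11986 and 10873, with overlap and a log2 fold change of 0.10 (adjusted p = 0.346). The GC content of Cox5b was 54.3% and that of Cox5a 44.4%, and with the correction for GC content and length their values were -0.07 and 0.03.

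Several complex IV subunits have a common form and a form known from particular tissues. The common forms carried nearly all counts. Cox6b1 had 8080.2 ± 618 normalized counts in Pdcd1f/f and 7620.2 ± 53.8 in Pdcd1f/fLysMcre TAMs (SD, n = 3; log2 fold change -0.08, adjusted p = 0.478), and the testis form Cox6b2 had 39.9, 29.0 and 32.9 against 20.4, 10.5 and 25.6 (log2 fold change -0.85, SE 0.36, adjusted p = 0.175). Cox6b2 was lower in every Pdcd1f/fLysMcre library and had the lowest value of the complex, at few counts. Cox6a1 had 6408 ± 528 and 5835 ± 272 (log2 fold change -0.13, adjusted p = 0.304, turning to 0.03 with the correction for GC content and length), and its muscle form Cox6a2 had 23.2, 27.9 and 35.0 against 44.4, 31.4 and 29.5 (log2 fold change 0.30, SE 0.30, adjusted p = 0.571), the highest value of the complex. Cox7a2 had 6301 ± 298 and 5803 ± 208 (log2 fold change -0.12, adjusted p = 0.284), and the muscle form Cox7a1 had 79.8, 79.3 and 100.8 against 62.0, 61.0 and 72.8 (log2 fold change -0.41, SE 0.19, adjusted p = 0.220). Both were lower in every Pdcd1f/fLysMcre library. Cox8a had 6379 ± 803 and 5533 ± 420 (log2 fold change -0.20, adjusted p = 0.214, and -0.08 with the correction for GC content and length). Cox4i2, known from lung and from low oxygen, had between 5 and 23 counts and was below the count minimum; Cox8b and Cox8c had 0 counts in every library. Ndufa4, named for complex I but described as a subunit of complex IV, had 6089 ± 847 and 5627 ± 459 normalized counts (log2 fold change -0.11, adjusted p = 0.519), and its paralog Ndufa4l2, known from low oxygen, had between 7 and 18 counts and was not tested.

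**Figure D3:**
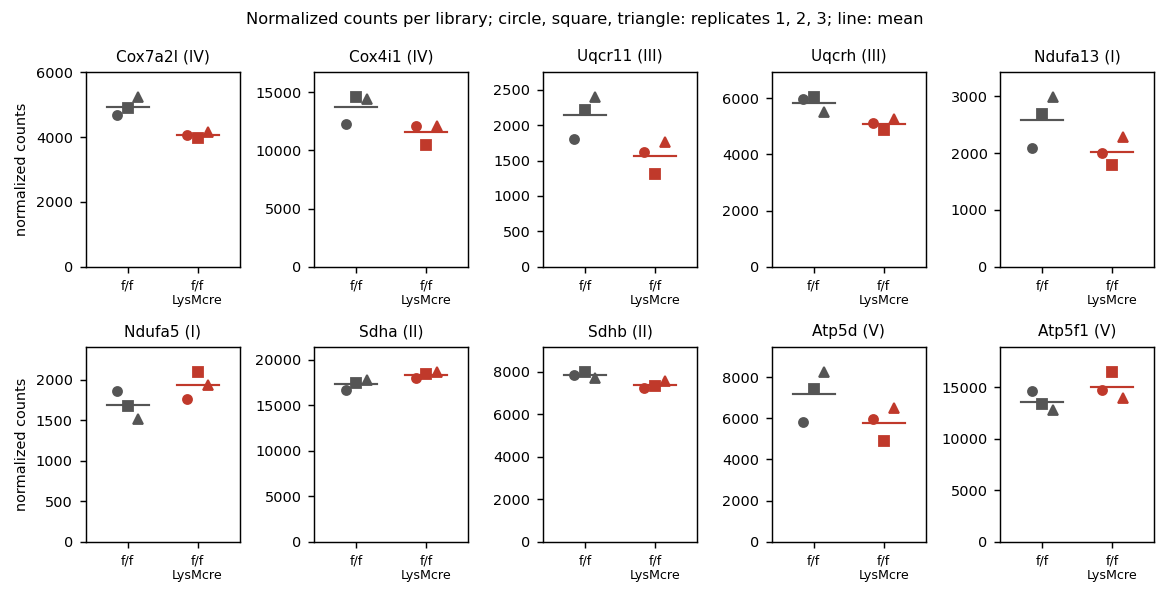
Normalized counts (y axis, from 0) of 10 subunit genes in each library of Pdcd1f/f (grey) and Pdcd1f/fLysMcre (red) TAMs; circles, squares and triangles are replicates 1, 2 and 3, lines are means, and the complex is in parentheses. Cox7a2l, Cox4i1, Uqcr11, Uqcrh and Sdhb are lower in every Pdcd1f/fLysMcre library, Sdha is higher in every one, and Ndufa13, Ndufa5, Atp5d and Atp5f1 overlap.

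In complex V, 17 genes were tested, none passed the threshold, and the median log2 fold change was -0.06. In the catalytic head, the level of each subunit that forms the hexamer was nearly equal between the genotypes. Atp5b had 55118, 59382 and 59422 normalized counts in Pdcd1f/f and 58693, 59195 and 60395 in Pdcd1f/fLysMcre libraries (log2 fold change 0.04, 95% interval -0.09 to 0.17), and Atp5a1 had 42077, 45166 and 45297 against 44513, 45271 and 45027 (0.03, 95% interval -0.10 to 0.16). The small subunits of the rotating stalk had values below 0 that did not pass. Atp5d had 5813, 7419.8 and 8231 against 5951, 4909.5 and 6475, with overlap (log2 fold change -0.31, SE 0.13, adjusted p = 0.180), the lowest value of the complex with TMM scaling but -0.13 with the correction for GC content and length, where Atp5l was lowest at -0.26. Atp5e had 5496, 5563 and 5037 against 4701, 4294 and 4775, without overlap (log2 fold change -0.22, SE 0.070, adjusted p = 0.0872). All 4 small membrane subunits were below 0, among them Atp5k at -0.22 (adjusted p = 0.0964) and Atp5j2 at -0.18 (adjusted p = 0.147), which help the enzyme to form dimers. The 4 peripheral stalk genes had 3 values above 0, with Atp5f1 the highest of the complex at 0.15 (SE 0.078, adjusted p = 0.267) and overlap of the genotypes. With the correction 2 of these 4 were above 0, since Atp5h turned from 0.0089 to -0.012. Atp5f1 was then at 0.04, and Atp5g2 was the highest at 0.06. The 3 genes for the c-ring were below 0, with Atp5g1 at -0.10 (adjusted p = 0.437), Atp5g2 at -0.07 (adjusted p = 0.559) and Atp5g3 at -0.0032 (adjusted p = 0.978). With the correction they were at -0.15, 0.06 and -0.06, so that Atp5g2 turned sign. Counts of Atp5g2, Atp5l, Cox7c and Atp5h are uncertain, since 87.5%, 69.0%, 53.7% and 52.5% of their 42-base windows occurred in another annotated gene. Atpif1, the natural inhibitor of the ATP synthase, had 5953 ± 546 and 5835 ± 105 normalized counts (log2 fold change -0.03, adjusted p = 0.854).

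The log2 fold change of the subunits followed their GC content. Across the 80 genes, Spearman's rho between the GC content of the exons and the log2 fold change was -0.63; the points share the same 6 libraries. Across 14454 of all genes it was -0.38. All 16 subunits above 55% GC had a log2 fold change below 0, with a median of -0.23, beside 77.9% below 0 and a median of -0.15 for all genes above 55% GC. An unadjusted p under 0.05 was found for 8 of them (50%), all lower, beside 21.8% of all genes above 55% GC that were lower. Of the 14 subunits below 45% GC, 8 (57.1%) had values below 0 and 6 above, with a median of -0.0038, beside 28.2% below 0 and a median of 0.12 for all genes below 45% GC. In the range between, the median was -0.09 for 50 subunits and 0.0034 for all genes.

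**Figure D4:**
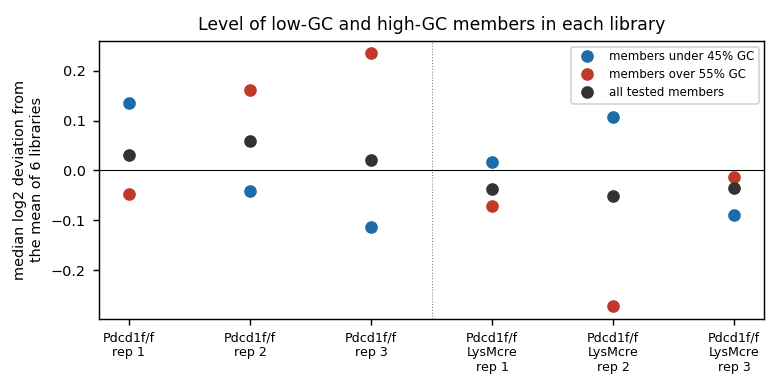
Median log2 deviation from the mean of the 6 libraries (y axis) of subunit genes below 45% GC (blue), above 55% GC (red) and of all 80 tested subunits (black) in each library (x axis). The median of all subunits is above 0 in the 3 Pdcd1f/f libraries and below 0 in the 3 Pdcd1f/fLysMcre libraries, and GC-poor and GC-rich subunits part in opposite directions within a genotype.

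Libraries of the same genotype also differed by GC content. In Pdcd1f/f replicate 1 the median log2 deviation from the mean of all libraries was 0.14 for subunits below 45% GC and -0.05 for those above 55% GC, whereas it was -0.04 and 0.16 in replicate 2 and -0.11 and 0.24 in replicate 3. In Pdcd1f/fLysMcre replicate 2 it was 0.11 and -0.27, whereas it was 0.02 and -0.07 in replicate 1 and -0.09 and -0.01 in replicate 3. Over all 80 subunits the median deviation was 0.03, 0.06 and 0.02 for Pdcd1f/f and -0.04, -0.05 and -0.04 for Pdcd1f/fLysMcre TAMs, which did not overlap.

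When the fit held an offset for each gene and library, taken from a loess curve on GC content and then on gene length, rho between GC content and log2 fold change over the subunits was -0.06, and the median log2 fold change of the 80 subunits was -0.09. In this fit 19 subunits (23.8%) fell past the threshold and none rose, beside 9.78% of all genes lower and 8.42% higher. They were 9 of complex I, 0 of complex II, 3 of complex III, 4 of complex IV and 3 of complex V. Cox7a2l was at -0.30 (adjusted p = 0.000343), Uqcr11 at -0.32 (adjusted p = 0.000502), Uqcr10 at -0.25 (adjusted p = 0.00110) and Uqcrh at -0.24 (adjusted p = 0.00119). Cox4i1 was at -0.15 (adjusted p = 0.0207), Ndufv3 at -0.18 (adjusted p = 0.0178), Atp5e at -0.17 (adjusted p = 0.0162) and Ndufa13 at -0.16 (adjusted p = 0.0349). Ndufa4, Ndufb2, Cox7a2, Cox7b and Atp5l, of lower GC content, were also among the 19, with log2 fold changes of -0.20, -0.24, -0.19, -0.24 and -0.26. These genes were named after their values were seen. With the offsets and 1 library left out, the number of lower subunits was 31 without Pdcd1f/f replicate 1, 8 without Pdcd1f/f replicate 2 and 13 without Pdcd1f/f replicate 3. It was 12 without Pdcd1f/fLysMcre replicate 1, 12 without replicate 2 and 18 without replicate 3. In the same 6 fits 21.8%, 10.3%, 12%, 14.0%, 12.9% and 13.3% of all genes passed in either direction.

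**Figure D5:**
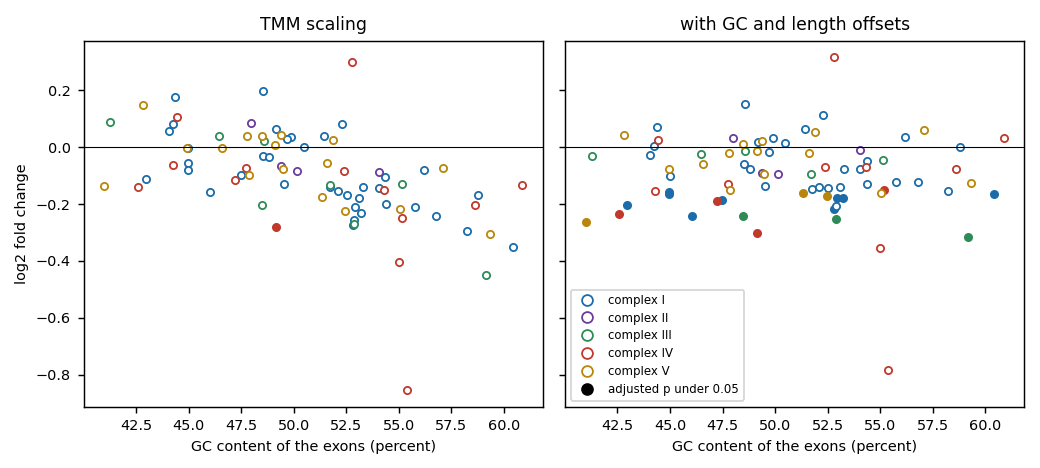
Log2 fold change (y axis) of the 80 tested subunit genes against the GC content of their exons in percent (x axis), with TMM scaling (left) and with offsets for GC content and length (right); colors give the complex and filled points have an adjusted p under 0.05. The slope on the left, with 1 filled point, is absent on the right, where 19 points are filled, all below 0.

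Leaving out both libraries that stood apart by GC content, with 2 libraries for each genotype, 25 subunits (31.3%) were lower and 2 higher past the threshold, beside 13.6% of all genes lower and 12.5% higher. The lower subunits were 11 of complex I, 2 of complex II, 4 of complex III, 4 of complex IV and 4 of complex V. Sdhc (log2 fold change -0.15, adjusted p = 0.0323), Sdhd (-0.14, adjusted p = 0.0434) and Uqcrc1 (-0.16, adjusted p = 0.0170) were among them. The 2 higher subunits were Ndufa5 and Atp5f1. Of the genes lower in this fit and of the 19 lower with the offsets, 11 were shared, which is 44% of the former and 57.9% of the latter. Leaving out Pdcd1f/f replicate 1 alone gave 18 lower and 1 higher, beside 21.6% of all genes past the threshold in either direction. Leaving out any other single library gave 0 in either direction, beside between 1.51% and 3.56% of all genes.

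The promoters of the 4 subunit genes with the lowest p that RefSeq lists are shown, because all 4 were lower in every Pdcd1f/fLysMcre library. The sequences are from RefSeq (GRCm38.p6), 5′ to 3′ on the strand of the gene, and lie before the RefSeq start site and outside every exon of the GENCODE M21 annotation. That of Cox7a2l lies within the longer GENCODE span of the gene, between exons. Capitals mark the letters GGGCGG, a core for SP1, in Cox7a2l, where they begin 22 bases before the start site, and CCGGAAG, a core for GABPA, in Uqcr11, where they begin 66 bases before it.
Cox7a2l: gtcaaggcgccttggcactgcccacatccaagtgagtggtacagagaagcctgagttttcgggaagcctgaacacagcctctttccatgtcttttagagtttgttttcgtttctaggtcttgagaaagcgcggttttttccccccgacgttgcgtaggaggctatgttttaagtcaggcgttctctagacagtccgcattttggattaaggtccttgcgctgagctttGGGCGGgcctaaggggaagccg
Uqcr10: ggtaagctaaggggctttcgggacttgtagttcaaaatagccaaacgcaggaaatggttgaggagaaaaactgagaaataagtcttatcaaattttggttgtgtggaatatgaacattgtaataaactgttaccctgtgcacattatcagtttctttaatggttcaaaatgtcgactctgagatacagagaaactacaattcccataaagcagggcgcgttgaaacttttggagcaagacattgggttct
Uqcr11: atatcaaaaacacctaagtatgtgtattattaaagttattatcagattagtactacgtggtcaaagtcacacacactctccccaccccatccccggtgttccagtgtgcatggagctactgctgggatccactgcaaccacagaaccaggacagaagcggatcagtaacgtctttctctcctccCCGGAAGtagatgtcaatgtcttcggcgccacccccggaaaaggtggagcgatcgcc
Ndufv3: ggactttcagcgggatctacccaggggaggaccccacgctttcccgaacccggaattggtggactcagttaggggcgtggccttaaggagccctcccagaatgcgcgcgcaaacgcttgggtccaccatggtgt
The first stretch, of Cox7a2l, is chr17:83514334-83514583 (minus strand), that of Uqcr10 is chr11:4704345-4704594 (minus strand), that of Uqcr11 is chr10:80406831-80407071 (minus strand) and that of Ndufv3 is chr17:31519981-31520114 (plus strand).

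Binding letters of factors known for these genes were counted on both strands in windows of 250 bases before to 50 after the start site. RefSeq listed such a window for 65 of the 81 subunit genes and for 27025 genes in all. The median GC content of the windows was 57.3% for the subunit genes and 52.7% for all genes. The letters GCATGCGC, a core for NRF1, were in 10 subunit windows (15.4%) and in 2.8% of all windows. CCGGAAG, for GABPA, was in 15 (23.1%) and in 9.12% of all, AAGATGGC, for YY1, in 8 (12.3%) and in 2.88% of all, and GGGCGG, for SP1, in 26 (40%) and in 35.9% of all. CCGGAAG and AAGATGGC can overlap by the letters AAG. The median log2 fold change was -0.13 in the 10 subunit genes with the NRF1 letters and -0.10 in the 55 without, and -0.14 in the 15 genes with the GABPA letters and -0.10 in the 50 without. It was -0.17 in the 8 genes with the YY1 letters and -0.11 in the 57 without. For the SP1 letters the order was the opposite, with -0.08 in the 26 genes with them and -0.14 in the 39 without. Of general promoter letters, CACGTG, an E-box, was in 5 subunit windows (7.69%) and in 7.24% of all, CCAAT in 28 (43.1%) and in 37.9% of all, and TATAAA in 5 (7.69%) and in 14.2% of all. The medians with and without them were -0.10 and -0.11 for CACGTG, -0.14 and -0.08 for CCAAT, and -0.18 and -0.10 for TATAAA. These are descriptions of letters, and no difference between genes with and without them was tested. Neither the shares nor the medians are corrected for GC content.

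Genes that make or serve the complexes were counted in the same test, in which 5.43% of all genes passed the threshold. Of the 13 subunits encoded in mitochondrial DNA, 8 were tested and none passed the threshold; mt-Nd1 had 60117 ± 11147 and 60331 ± 4443 normalized counts, mt-Co1, an uncertain count with 55.7% of windows shared, 256667 ± 32708 and 243436 ± 14762 and mt-Cytb 105229 ± 19960 and 99544 ± 5899 (SD, n = 3). Counts of mt-Nd3 and mt-Nd4 are also uncertain, with 98.1% and 62.5% of windows shared. The other 5, mt-Co2, mt-Co3, mt-Atp6, mt-Atp8 and mt-Nd4l, had at most 3 counts in a library, and between 98.8% and 100% of the 42-base windows of 4 of them occurred in annotated pseudogenes, beside 1.23% for mt-Atp8, which had 0 counts in every library. The part of shared sequence in these low counts was not tested. Of 18 assembly factors of complex I, Dmac2 fell, from 746 ± 45.7 to 555 ± 36.5 (log2 fold change -0.42, adjusted p = 0.0265). Of 6 assembly factors of complex III, Ttc19 rose, from 634 ± 51.9 to 837 ± 66.7 (log2 fold change 0.40, adjusted p = 0.0391). None of 4 assembly factors of complex II, 21 of complex IV and 3 of complex V passed, nor any of 14 genes of electron carriers and coenzyme Q synthesis or of 11 transcription regulators. Of these regulators 8 were above 0 and 3 below, beside 50.4% of all genes below 0. The largest shift was that of Esrra, an estrogen-related receptor, at -0.36 (adjusted p = 0.0926), followed by Gabpb1, a subunit of the factor GABP, at 0.25 (adjusted p = 0.0903).

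Among 77 mitochondrial ribosomal proteins tested, Mrps2 and Mrps22 of the small ribosomal subunit rose, with log2 fold changes of 0.28 (adjusted p = 0.0427) and 0.35 (adjusted p = 0.0410), and none fell, beside 350 of 14469 genes that rose. Of the 77, 30 were above and 47 below 0, with a median of -0.06, beside 50.4% of all genes below 0. Among 7 nucleotide carriers, channels and uncoupling proteins, Ucp2, an inner-membrane carrier, fell from 41342 ± 5276 to 27197 ± 2709 normalized counts (log2 fold change -0.60, SE 0.10, adjusted p = 0.00794). The other 6 were above 0 and did not pass. The summed level did not overlap between the genotypes in 2 of these lists: it was between 416 and 422 CPM in Pdcd1f/f and between 443 and 449 CPM in Pdcd1f/fLysMcre libraries for the transcription regulators, and between 3051 and 3251 against 2942 and 3009.8 CPM for the nucleotide carriers, Ucp2 included. It overlapped in the other lists. Values of these lists are not corrected for GC content.

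The X-linked subunits Ndufa1, Ndufb11 and Cox7b had log2 fold changes of -0.10, -0.17 and -0.14, none past the threshold with TMM scaling. With the correction for GC content and length, Ndufa1 (-0.19, adjusted p = 0.0168) and Cox7b (-0.24, adjusted p = 0.00280) were past it. Ndufb11 was not (-0.14, adjusted p = 0.0670). Transcripts that differ by sex also differed between the genotypes: the summed normalized counts of 4 Y-linked genes were between 1545 and 1914 in Pdcd1f/f and between 6267 and 7233 in Pdcd1f/fLysMcre libraries, and those of Xist between 17318 and 26511 against 8529.5 and 13137. Neither measure overlapped between the genotypes. The part of sex in the values of all subunits, X-linked or not, and in the sums by complex cannot be told apart from the genotype.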

How the data were processed

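TAMs of 2 genotypes, Pdcd1f/f and Pdcd1f/fLysMcre, were measured by stranded polyA RNA-seq with paired-end reads of 42 nt, 3 libraries each, grouped by the labels. According to the labels and the study's methods, the authors removed adapters with cutadapt 2.5, aligned reads to GRCm38 with STAR 2.7.3a and obtained gene counts for the Ensembl v98 annotation with featureCounts (Subread 1.6.2). The strand setting of the counting and its handling of multi-mapped reads are not given in the sources used here. The authors deposited raw counts and a normalized signal table, in which the counts of a library are divided by 1 size factor, between 0.895 and 1.08; normalized counts in the text are on this scale.

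From the raw counts, edgeR 4.0.16 (R 4.3.3) was run with filterByExpr (minimum count 10, total 15), TMM scaling, robust glmQLFit and the two-sided glmQLFTest, with Benjamini-Hochberg adjustment over 14469 genes and a threshold of 0.05; standard errors and 95% intervals came from the fold change and the F statistic. CPM used TMM-scaled library sizes, and levels per kilobase used the length of a principal transcript. Symbols, exon GC content and lengths came from GENCODE M21 (GRCm38), which matched 55240 of 55421 gene IDs. Shared sequence was counted as 42-base windows of a subunit's transcript that also occur in another gene's transcripts. Depth was between 41833823 and 51417209 counts, so genes with under 100 counts were measured only roughly. Replicates differed by more than sampling noise.

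Alternatives were RLE factors, library size alone, other count filters, DESeq2 1.42.0, limma-trend 3.58.1 on log2(value + 1), the replicate number as a block, loess offsets (span 0.5) for GC content and length alone or together with the block, leaving out each library, and both libraries that stand apart left out; the offsets with each library left out were added after seeing the data. The scripts were tested on simulated data. The members and lists were chosen with earlier results of these data known. Genes named are the subunits past the threshold, the highest and lowest of each complex, complex II, isoform pairs and Atpif1, plus others of the prefixes chosen after their values were seen. Sdhaf genes, which begin with Sdha, were treated as assembly factors.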

Additional observations from a re-analysis of the deposited data

How the results depend on the processing

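The median log2 fold change of the subunits kept its sign in every alternative run, with the lowest value, -0.11, under library size alone, against -0.10 with TMM. The number of subunits lower past the threshold was 1 with TMM, 9 when all genes with at least 1 count were tested, 5 with DESeq2, 19 with the GC and length offsets, 21 with these offsets and the replicate block, and 25 without both libraries that stand apart by GC content, where 2 were higher. The number of all genes past the threshold, 786 with TMM, was 1951, 1528, 2634, 2910 and 3757 in the same alternatives. With the replicate block alone 2 subunits, Cox7a2l and Uqcr11, were lower and 1027 of all genes passed. Same-numbered libraries deviated from their group means with correlations of -0.02, -0.09 and 0.19, and only Pdcd1f/f replicate 3 correlated best with its own number, so the libraries share only a number. With 1 library left out, between 0 and 18 subunits were lower, 0 or 1 higher, and between 222 and 3181 of all genes passed. With the offsets and 1 library left out, added after seeing the data, between 8 and 31 subunits were lower, between 0 and 2 higher, and between 1528 and 3212 of all genes passed, with a median log2 fold change of the subunits between -0.11 and -0.09. Uqcrb turned to -0.031 with the offsets, without and with the block. It was between -0.027 and 0.25 with 1 library left out, and between -0.087 and 0.022 with the offsets and 1 library left out. Cox6a1 turned to 0.032 with the offsets and to 0.031 with offsets and block. It was between -0.21 and -0.084 with 1 library left out, and between -0.011 and 0.054 with the offsets as well. With 1 library left out Sdha was between 0.050 and 0.10 and Sdhb between -0.11 and -0.072, and with the offsets as well they were between -0.025 and 0.063 and between -0.051 and 0.020. The cause of these changes was not tested. At their low counts, Cox6b2, Cox6a2 and Cox7a1 had standard errors between 0.19 and 0.36, and differences of the size seen in other subunits could not be detected in them.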
